A study of Mus musculus with 8 samples.

Results

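IFN-gamma and IL-4 are the cytokines that drive the classical and the alternative activation of macrophages, and 58 of the 10073 genes compared in mouse macrophages (0.576%) were moved at least 2-fold by each of them. The level of 25 genes (0.248%) was higher with both cytokines and that of 6 (0.0596%) was lower with both. A further 7 genes (0.0695%) were higher with IFN-gamma and lower with IL-4, and 20 (0.199%) were lower with IFN-gamma and higher with IL-4. These genes were chosen by their measured responses. A response is the difference in log2(FPKM + 1), treated minus untreated, averaged over both genotypes, where FPKM is the number of fragments per kilobase of transcript, scaled to the total of each library. A gene had to average at least 1 FPKM in the 4 libraries of each cell type. The tables hold 18125 genes in all.

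The series has 8 RNA sequencing libraries from C57BL/6 mice, 1 for each group, so that no group has a replicate. Thioglycollate-elicited peritoneal macrophages (1 ml of a 4% solution, collected after 3 to 4 days) were untreated or kept for 12 hours with 10 ng/mL IFN-gamma. Macrophages grown from bone marrow for 5 days with 10% M-CSF were untreated or kept for 6 hours with 10 ng/mL IL-4. Each of these 4 conditions was sampled in wild-type (WT) cells and in Slc6a8-/y cells (KO), which lack the X-linked creatine transporter gene. The cytokine, the cell type, the hours of treatment and the depth of sequencing all differ together and cannot be told apart. The labels do not say how many animals gave each library, nor whether libraries of 1 genotype share an animal.

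Both cytokines signal through Janus kinases bound to their receptors. IFN-gamma acts on genes with gamma-activated sites (GAS elements) and induces IRF factors that bind interferon-stimulated response elements. IL-4 activates mainly STAT6, which prefers a palindrome with a wider spacer. SOCS proteins are induced by both pathways and block the kinases.

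Slc6a8 itself checked the labels. WT peritoneal macrophages held 164 FPKM untreated and 39.5 FPKM with IFN-gamma, and the KO libraries 0.73 and 0.18 FPKM. WT bone marrow-derived macrophages held 97.3 FPKM untreated and 87.9 FPKM with IL-4, and the KO libraries 1.71 and 1.15 FPKM. Total expected counts ran from 10812678 to 11065427 in peritoneal and from 20553654 to 21221526 in bone marrow-derived libraries, and a gene near 1 FPKM had a median of 28 to 31 and of 49.4 to 61.5 counts. All 10 macrophage markers, among them Adgre1, Csf1r and Lyz2, were detected, with sums of 6444 to 10509 FPKM in peritoneal and 12127 to 14918 FPKM in bone marrow-derived libraries. The sums of B cell, T and NK cell, neutrophil, and eosinophil, basophil and mast cell markers lay between 1.28 and 13.7 FPKM in peritoneal and between 1.03 and 7.52 FPKM in bone marrow-derived libraries. Dendritic cell markers summed to 211 to 307 FPKM in peritoneal and to 7.03 to 29.0 FPKM in bone marrow-derived libraries, most of it Itgax, which macrophages also express. Fibroblast and mesothelial markers summed to 145 (WT) and 135 FPKM (KO) in untreated peritoneal libraries, and to 120 and 93.9 FPKM with IFN-gamma. In bone marrow-derived libraries they summed to 387 and 362 FPKM in WT against 206 and 177 FPKM in KO. Most of this was Col1a1 and Col1a2. In bulk RNA, fewer cells that express a gene and less of its RNA per cell cannot be told apart.

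IFN-gamma moved far more genes 2-fold than IL-4 did in these cultures. It was followed by 582 genes at least 2-fold higher (5.78% of those compared) and 516 lower (5.12%), against 101 higher (1.0%) and 21 lower (0.208%) with IL-4. Genes up with both made 24.75% of the genes up with IL-4 and 4.3% of those up with IFN-gamma. Genes down with both made 28.57% of the genes down with IL-4 and 1.16% of those down with IFN-gamma. Opposed genes made 33.33% of the genes down with IL-4 (1.2% of those up with IFN-gamma) and 19.8% of the genes up with IL-4 (3.88% of those down with IFN-gamma). Of the 122 genes that IL-4 moved, 64 were not moved 2-fold by IFN-gamma. Across the 10073 genes, which are not independent of each other, the responses had a Pearson r of 0.12 and a Spearman rho of 0.19, and their medians were -0.08 and -0.02.

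**Figure D1:**
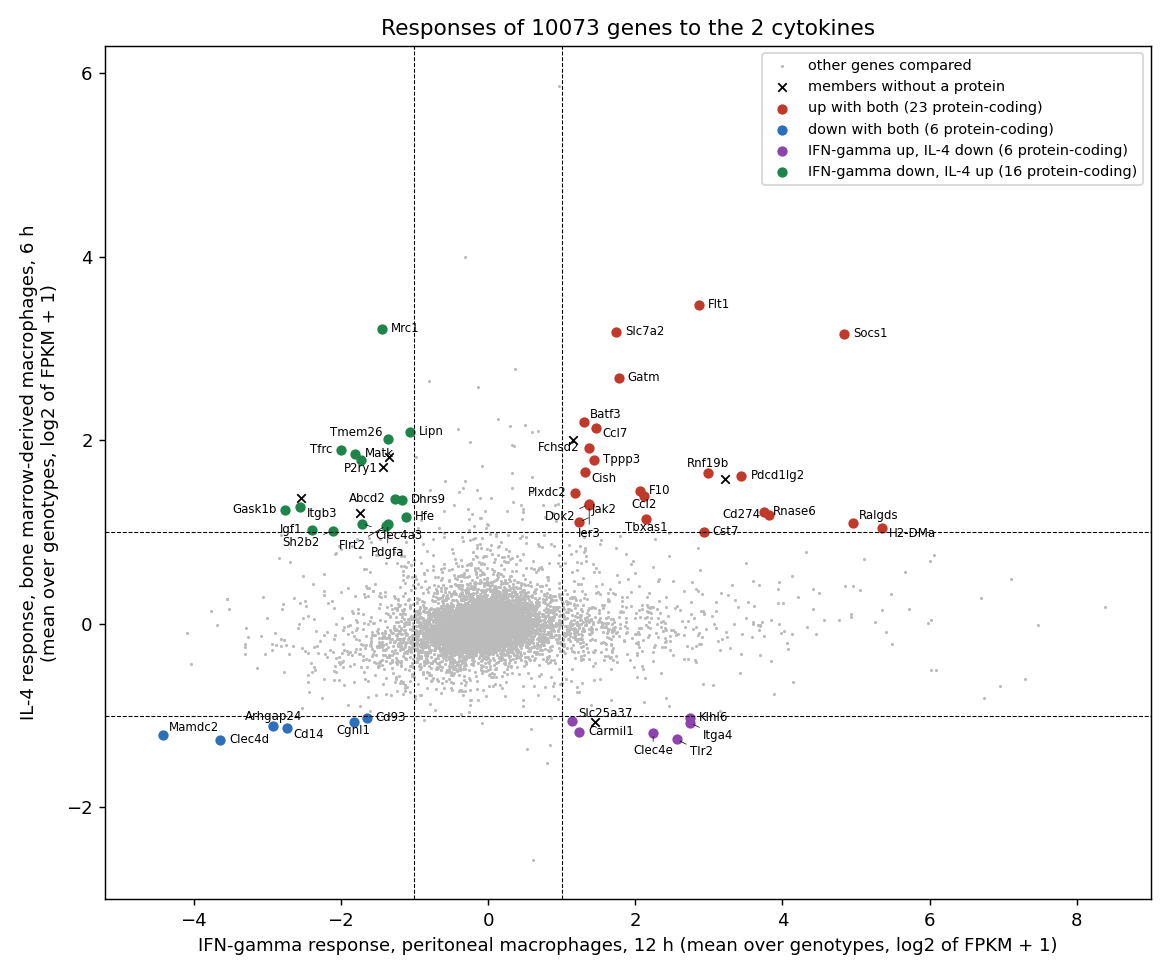
Each point is 1 of 10073 genes, with its response to IFN-gamma (peritoneal macrophages, 12 hours) on the x axis and to IL-4 (bone marrow-derived macrophages, 6 hours) on the y axis, as mean difference in log2(FPKM + 1) over both genotypes. Dashed lines mark the 2-fold limits. The coloured protein-coding members fill the 4 corners, with Socs1, Flt1, Slc7a2 and Gatm far out among the genes up with both, and crosses mark 7 small RNA genes.

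Of the 58 genes 51 code for proteins: 23 of those up with both, 6 of those down with both, 6 up with IFN-gamma and down with IL-4, and 16 of the reverse kind. The other 7 are genes of small RNAs with at most 20 counts in any library and are only counted here. In all 51 the treated and untreated libraries did not overlap in either cell type, which also held for 66.7% of the genes compared in peritoneal cells, 57.9% in bone marrow-derived cells and 39.5% in both. In the edgeR additive fits all 51 passed the stimulus test (adjusted p under 0.05) in both cell types, against 32.1% of genes tested in peritoneal cells, 21.2% in those from bone marrow and 11.9% in both. Because the same contrasts chose the genes, neither count is evidence for them. With DESeq2 47 of 51 passed in both; Batf3, Clec4e and Lipn missed the threshold with IFN-gamma and Cst7 with IL-4.

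Among the genes up with both cytokines, the SOCS family inhibitors Socs1 and Cish and the kinase Jak2 belong to the signalling pathway itself. Socs1 (Entrez gene 12703, chr16:10783808-10785536 on GRCm38), the main inhibitor of Janus kinases downstream of IFN-gamma, went from 2.15 to 90.1 FPKM (WT) and from 2.58 to 99.8 FPKM (KO). IL-4 took it from 1.22 to 20.9 FPKM (WT) and from 1.54 to 19.7 FPKM (KO). All 4 treated libraries stood many fold above their controls, with mean responses of 4.83 and 3.16, and the genotypes lay close together. Cish (Entrez gene 12700), another SOCS family member, was a low gene with IFN-gamma, going from 0.16 to 1.1 FPKM (WT) and from 0.23 to 3.25 FPKM (KO), on 5, 37, 7 and 108 counts. With IL-4 Cish went from 0.22 to 3.66 FPKM (WT) and from 0.25 to 2.23 FPKM (KO). Jak2 (Entrez gene 16452), a kinase of the IFN-gamma receptor, went from 8.86 to 19 FPKM (WT) and from 8.75 to 25.7 FPKM (KO). Its level in bone marrow-derived macrophages went from 8.42 to 18.3 FPKM (WT) and from 7.95 to 19.3 FPKM (KO), so that it was about 2-fold higher with either cytokine.

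Jak2 lies beside 2 other members on chromosome 19. Cd274 (chr19:29362107-29388095), which encodes the T cell inhibitory ligand PD-L1, starts 49.0 kb past the end of Jak2 (chr19:29251803-29313095). Pdcd1lg2 (chr19:29410919-29472927), which encodes the second PD-1 ligand, PD-L2, follows after another 22.8 kb. Cd274 went from 24.8 to 311 FPKM (WT) and from 20.6 to 354 FPKM (KO). The IL-4 pairs of Cd274 went from 8.96 to 21 FPKM (WT) and from 8.72 to 21.7 FPKM (KO). Pdcd1lg2 went from 0.08 to 10.8 FPKM (WT) and from 0.24 to 12.5 FPKM (KO), and with IL-4 from 0.03 to 2.79 FPKM (WT) and from 0.07 to 1.74 FPKM (KO). Cd274 was the higher of the 2 ligand genes in every library, per length of transcript, and its level with IFN-gamma was far above that with IL-4. The untreated level of Cd274 also differed between cell types (bone marrow-derived minus peritoneal -1.26 on the log2(FPKM + 1) scale). Untreated Pdcd1lg2 rested on 2 to 9 counts a library, so the size of its fold is not given. These 2 ligand genes were the only members on the list of 17 co-stimulatory and checkpoint genes compared, against 0.576% of all genes. Pdcd1lg2 passed the FPKM filter only through its treated libraries, so this count is a description.

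A second pair of neighbours encodes the monocyte-attracting chemokines CCL2 and CCL7. Ccl2 (chr11:82035577-82037452) and Ccl7 (chr11:82045712-82047525) are 8.3 kb apart. Ccl2 went from 17.2 to 53.1 FPKM (WT) and from 17.2 to 116 FPKM (KO), and with IL-4 from 9.67 to 21.8 FPKM (WT) and from 6.46 to 23.1 FPKM (KO). Ccl7 went from 3.95 to 8.63 FPKM (WT) and from 5.24 to 23.3 FPKM (KO), and with IL-4 from 3.61 to 16 FPKM (WT) and from 1.75 to 13.5 FPKM (KO). After IFN-gamma both stood higher in the KO than in the WT library, by 1.11 and 1.34 on the log2(FPKM + 1) scale, while after IL-4 the levels of the genotypes were close. Of 15 chemokine genes compared, these 2 were the members and the only 2 that IL-4 moved up 2-fold, against 7 with IFN-gamma. Of all genes 1.0% were up with IL-4 and 5.78% with IFN-gamma.

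**Figure D2:**
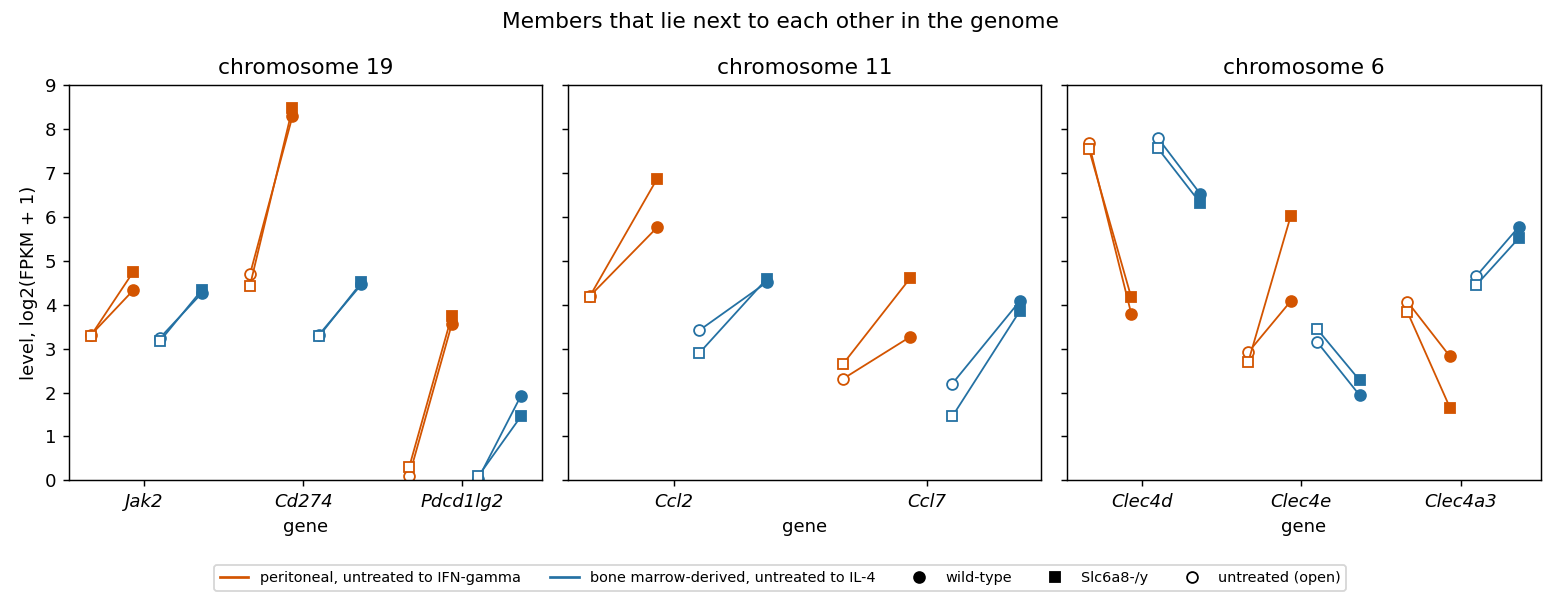
Levels, as log2(FPKM + 1), of members that lie near each other on chromosomes 19, 11 and 6, with open symbols for untreated and filled symbols for treated libraries, circles for WT and squares for KO, orange for IFN-gamma in peritoneal and blue for IL-4 in bone marrow-derived macrophages. The lines rise with both cytokines for Jak2, Cd274, Pdcd1lg2, Ccl2 and Ccl7. On chromosome 6 Clec4d falls with both, Clec4e rises with IFN-gamma and falls with IL-4, and Clec4a3 does the reverse.

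Slc7a2 and Gatm, both on the arginine, polyamine and creatine list, were up with both. Slc7a2, which encodes the cationic amino acid transporter CAT2, went from 2.56 to 10.3 FPKM (WT) and from 2.15 to 9.98 FPKM (KO). IL-4 moved it from 3.2 to 39.4 FPKM (WT) and from 3.15 to 34.6 FPKM (KO), a mean response of 3.18. Gatm, the first enzyme of creatine synthesis, which uses arginine, went from 6.97 to 37.4 FPKM (WT) and from 10.2 to 26.2 FPKM (KO). With IL-4 Gatm went from 32.6 to 215 FPKM (WT) and from 37 to 244 FPKM (KO). Gatm was higher with IL-4 than with IFN-gamma in absolute level as well as in response. Its untreated level was already higher in bone marrow-derived macrophages, by 1.92 on the log2(FPKM + 1) scale. The WT and KO responses of Gatm to IFN-gamma were 2.27 and 1.28. Slc7a2 and Gatm were 2 of 19 genes compared on the arginine, polyamine and creatine list. On it 4 were at least 2-fold up and 4 down with IFN-gamma (5.78% and 5.12% of all genes). With IL-4 3 were up (1.0% of all genes). Gamt, the second enzyme of creatine synthesis, had mean responses of -0.86 and 0.14, and Slc7a1, another arginine transporter, of 1.28 and 0.36. Arg1, the arginase that competes for the same substrate, lay just outside the limit with IFN-gamma, at a mean response of 0.97 (0.63 to 3.43 FPKM in WT, 0.06 to 0.49 in KO), and reached 5.86 with IL-4.

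The largest IL-4 response among the shared genes was that of Flt1, which encodes VEGF receptor 1. It went from 0.23 to 5.55 FPKM (WT) and from 0.24 to 11.4 FPKM (KO), and with IL-4 from 0.83 to 18.2 FPKM (WT) and from 1.03 to 22.8 FPKM (KO). Its rise was seen in all 4 pairs, and the KO library was the higher of each treated pair. Among transcription factors, Batf3, a basic leucine zipper factor known from dendritic cells, went from 2.02 to 7.23 FPKM (WT) and from 1.6 to 4.77 FPKM (KO) and with IL-4 from 0.34 to 7.01 FPKM (WT) and from 0.83 to 5.49 FPKM (KO), on 5 to 12 counts in the latter untreated libraries. The other 9 dendritic cell markers summed to 7.88 and 6.20 FPKM in untreated and 21.9 and 19.2 FPKM in IL-4-treated bone marrow-derived libraries, most of it Itgax, while Zbtb46, Siglech, Ccr7, Itgae and Cd209a stayed below 0.5 FPKM in every library. Clec9a on the same list went from 0.13 to 30.7 FPKM (WT) and from 0 to 14.1 FPKM (KO) with IFN-gamma and stayed below 0.1 FPKM in bone marrow-derived libraries. Flt3 was listed at 0 in peritoneal libraries and went from 0.06 to 0.44 FPKM (WT) and from 0.15 to 0.73 FPKM (KO) with IL-4, and Xcr1 was at most 0.73 FPKM. Their part in the Batf3 result was not tested. Ier3, an immediate early gene, went from 5.26 to 11.4 FPKM (WT) and from 4.1 to 16.3 FPKM (KO) and with IL-4 from 8.13 to 23.1 FPKM (WT) and from 8.29 to 20.2 FPKM (KO).

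H2-DMa, a chaperone that loads peptides on MHC class II, went from 5.83 to 279 FPKM (WT) and from 3.49 to 183 FPKM (KO), the largest IFN-gamma response of the class (5.35). Under IL-4 it moved from 9.58 to 22.3 FPKM (WT) and from 11 to 22.2 FPKM (KO), close to the 2-fold limit. Ralgds, an exchange factor for Ral GTPases, had a similar shape, going from 7.9 to 274 FPKM (WT) and from 8.73 to 301 FPKM (KO) and with IL-4 from 9.6 to 23.1 FPKM (WT) and from 9.59 to 20.6 FPKM (KO). Rnf19b, a ubiquitin ligase, went from 28.4 to 219 FPKM (WT) and from 27 to 233 FPKM (KO) and with IL-4 from 56.2 to 170.3 FPKM (WT) and from 56.2 to 186 FPKM (KO), one of the 4 genes of the class with Socs1, Gatm and Slc7a2 that stayed in it under every setting tried. Tbxas1, thromboxane synthase, went from 21.1 to 112 FPKM (WT) and from 13.5 to 54.4 FPKM (KO) and with IL-4 from 47.6 to 104 FPKM (WT) and from 44 to 101 FPKM (KO). F10, the coagulation factor X gene, went from 57.8 to 182 FPKM (WT) and from 76.3 to 431 FPKM (KO), and with IL-4 from 1.0 to 4.69 FPKM (WT) and from 1.54 to 5.62 FPKM (KO); it was by far the lower in bone marrow-derived cells.

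The remaining genes up with both were Dok2, Fchsd2, Plxdc2, Rnase6, Tppp3 and Cst7. Dok2, an adaptor that dampens kinase signalling, went from 12.9 to 44.7 FPKM (WT) and from 10.5 to 22.3 FPKM (KO) and with IL-4 from 23.9 to 59 FPKM (WT) and from 18.7 to 48.6 FPKM (KO). Fchsd2, a membrane-bending endocytic protein gene, went from 3.15 to 7.21 FPKM (WT) and from 3.18 to 13.1 FPKM (KO) and with IL-4 from 7.21 to 31.1 FPKM (WT) and from 6.4 to 26.2 FPKM (KO). Plxdc2 went from 1.09 to 4.32 FPKM (WT) and from 1.06 to 3.18 FPKM (KO) and with IL-4 from 9.4 to 28.5 FPKM (WT) and from 7.82 to 21.4 FPKM (KO). The mean responses of these 3 genes lay between 1.18 and 1.92. Rnase6, an antimicrobial ribonuclease, went from 0.09 to 21.8 FPKM (WT) and from 0.35 to 10.6 FPKM (KO) on 1 and 4 untreated counts, and with IL-4 from 3.46 to 9.01 FPKM (WT) and from 4.49 to 12.3 FPKM (KO). Tppp3 and Cst7, the latter encoding cystatin F, were listed at 0 in the untreated WT peritoneal library. They reached 2.83 and 4.87 FPKM in WT with IFN-gamma. In KO Tppp3 went from 0.27 to 1.43 FPKM and Cst7 from 0.28 to 11.7 FPKM. The IL-4 responses of Tppp3 and Cst7 were 1.79 and 1.00. Cst7 and H2-DMa lay just inside the 2-fold limit with IL-4 (1.004 and 1.05). St7 (0.996 with IL-4) and Arg1 (0.97 with IFN-gamma) lay just outside the limits.

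**Figure D3:**
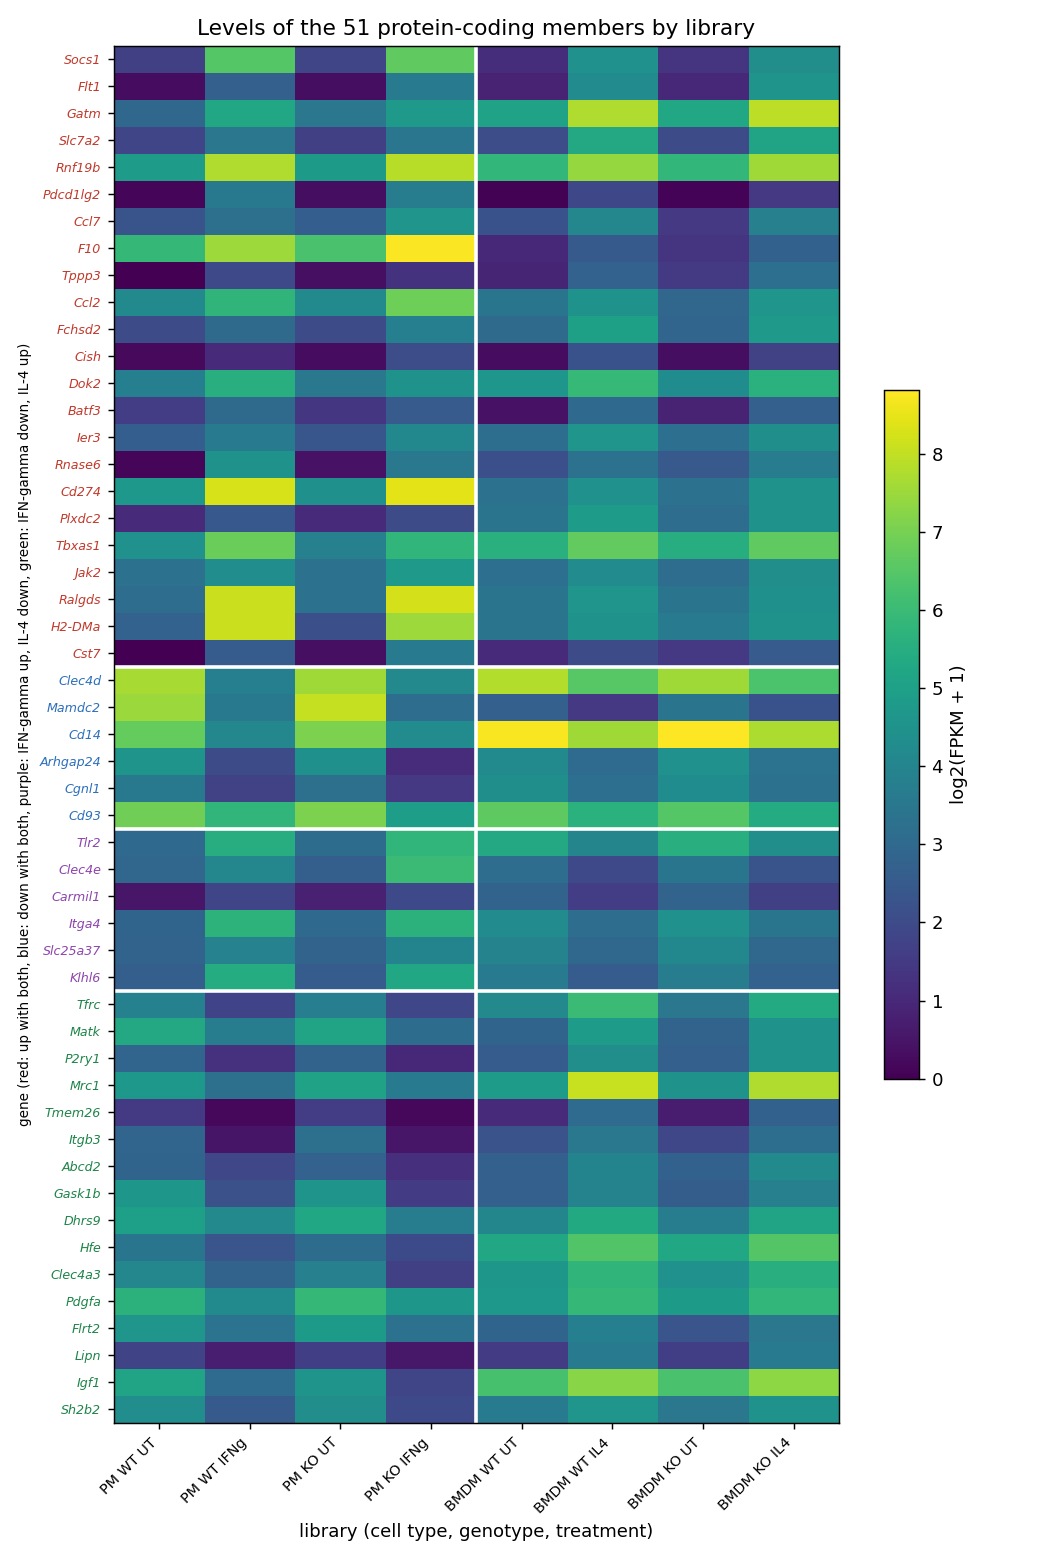
Level of each of the 51 protein-coding members in each of the 8 libraries, as log2(FPKM + 1) on a colour scale from dark (0) to yellow. White lines part the 4 classes and the 2 cell types. Columns of the same treatment look alike in WT and KO, and classes differ in which treated columns are brighter than their untreated neighbours.

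Promoters of 37 of the 51 protein-coding members were found in the RefSeq table of GRCm38.p6, as windows of 250 bases before to 50 after a start, and 4 motifs were counted in them and in those of 8148 compared genes. The motif TTCNNNGAA, of the GAS kind, was in 2 of 17 genes up with both (Batf3 and Cish) and in 8.2% of all genes. TTCNNNNGAA, the wider spacing that STAT6 prefers, was in 3 of 17 (Pdcd1lg2, Ralgds and Tbxas1) and in 6.5% of all. GAAANNGAAA, of the interferon-stimulated response element kind, was in 2 of 17 (Rnase6 and Socs1), in 1 of 2 genes down with both that have a window (Clec4d) and in 4.0% of all. The first 2 motifs read the same on both strands, the third was searched on both, and a window may hold more than one. A match describes letters in the window and is no evidence of binding. Of the shared genes with a match, 4 are shown as examples, with the matches in capitals, read 5′ to 3′ along the gene. Ralgds, Tbxas1, Rnase6 and Clec4d also held a match and are not shown. The Socs1 window is chr16:10785537-10785786 (minus strand), with 2 overlapping matches to GAAANNGAAA at -83 to -74 and -77 to -68 from the start. The Pdcd1lg2 window is chr19:29410669-29410918 (plus strand), with TTCCTCAGAA at -82 to -73. The Batf3 window is chr1:191098164-191098413 (plus strand), with TTCCACGAA at -239 to -231. For Cish the first 20 bases of the transcript are shown (chr9:107296659-107296678, plus strand), which hold 2 matches to TTCNNNGAA.
Socs1: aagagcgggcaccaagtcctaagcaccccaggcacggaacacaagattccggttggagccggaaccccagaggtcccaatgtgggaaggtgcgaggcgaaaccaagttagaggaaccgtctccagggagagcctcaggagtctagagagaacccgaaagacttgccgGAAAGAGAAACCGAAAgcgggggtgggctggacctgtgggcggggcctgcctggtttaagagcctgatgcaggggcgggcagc
Pdcd1lg2: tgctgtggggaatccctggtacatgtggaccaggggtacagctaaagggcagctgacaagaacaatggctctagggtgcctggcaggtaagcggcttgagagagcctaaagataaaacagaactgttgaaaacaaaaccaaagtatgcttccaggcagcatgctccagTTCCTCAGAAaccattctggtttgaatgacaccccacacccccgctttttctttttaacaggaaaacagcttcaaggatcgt
Batf3: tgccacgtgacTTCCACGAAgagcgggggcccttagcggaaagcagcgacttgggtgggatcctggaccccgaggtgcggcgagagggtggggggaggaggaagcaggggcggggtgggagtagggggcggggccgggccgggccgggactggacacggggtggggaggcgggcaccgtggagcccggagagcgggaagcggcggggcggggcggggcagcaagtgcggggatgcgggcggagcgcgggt
Cish: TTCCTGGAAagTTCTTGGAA

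The 6 genes down with both cytokines included 2 receptors that sense microbes. Clec4d, a C-type lectin receptor of microbial ligands, went from 204 to 12.9 FPKM (WT) and from 187 to 17 FPKM (KO). IL-4 took it from 221 to 90.8 FPKM (WT) and from 188 to 78.5 FPKM (KO). Cd14, the co-receptor that hands lipopolysaccharide to TLR4, went from 105 to 15.9 FPKM (WT) and from 134 to 18.2 FPKM (KO), and with IL-4 from 427 to 186 FPKM (WT) and from 450.5 to 212 FPKM (KO). Cd14 stayed the most abundant of the 6 in every bone marrow-derived library, per length of transcript. Both fell further with IFN-gamma (mean responses of -3.63 and -2.73) than with IL-4 (-1.26 and -1.14).

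The other 4 genes down with both were Mamdc2, Arhgap24, Cgnl1 and Cd93. Mamdc2, a gene for a secreted MAM-domain protein, had the largest response of the class to IFN-gamma, going from 180.5 to 10.8 FPKM (WT) and from 262 to 7.84 FPKM (KO); with IL-4 it went from 5.47 to 1.75 FPKM (WT) and from 9.46 to 3.61 FPKM (KO). It was much lower in untreated bone marrow-derived than in untreated peritoneal cells. Arhgap24, a Rac-inactivating protein, went from 22.5 to 3.14 FPKM (WT) and from 20.6 to 1.15 FPKM (KO) and with IL-4 from 17.6 to 7.44 FPKM (WT) and from 20.9 to 9.31 FPKM (KO). Cgnl1, a junction protein related to cingulin, went from 10.7 to 2.29 FPKM (WT) and from 8.64 to 1.73 FPKM (KO) and with IL-4 from 19.8 to 8.27 FPKM (WT) and from 18.7 to 9.03 FPKM (KO). Cd93, a lectin-like surface receptor, went from 119.6 to 54.8 FPKM (WT) and from 135 to 28.9 FPKM (KO) and with IL-4 from 98 to 48.3 FPKM (WT) and from 88.8 to 42.5 FPKM (KO). Cd93 and Cgnl1 lay just inside the 2-fold limit with IL-4 (-1.03 and -1.07), and Nav2 and Cav2 just outside it (-0.95 and -0.89).

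A pair of pattern receptors was in the class that rose with IFN-gamma and fell with IL-4. Tlr2, the Toll-like receptor for bacterial lipopeptides, went from 7.14 to 44.1 FPKM (WT) and from 7.73 to 54.4 FPKM (KO). Its level with IL-4 went from 39 to 15.2 FPKM (WT) and from 46.6 to 19.6 FPKM (KO). Clec4e, which encodes Mincle, a receptor for mycobacterial cord factor, went from 6.52 to 15.8 FPKM (WT) and from 5.43 to 63.3 FPKM (KO), and with IL-4 from 7.87 to 2.83 FPKM (WT) and from 9.87 to 3.85 FPKM (KO). Tlr2 moved alike in both genotypes, whereas the KO response of Clec4e to IFN-gamma (3.32) exceeded the WT response (1.16). Clec4e (chr6:123281789-123289871) lies 6.5 kb from Clec4d (chr6:123262107-123275268), and the proteins are known to pair. IL-4 lowered both genes in both genotypes, while IFN-gamma lowered Clec4d and raised Clec4e. Of 19 Toll-like and pattern receptor genes compared, IFN-gamma moved 9 up and 4 down 2-fold (5.78% and 5.12% of all genes). IL-4 moved 1 up and 4 down (1.0% and 0.208% of all genes). The 4 down with IL-4 were Cd14, Clec4d, Tlr2 and Clec4e.

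The other 4 genes of this class were Itga4, Klhl6, Slc25a37 and Carmil1. Itga4, the alpha 4 integrin of leukocyte homing, went from 6.2 to 50.5 FPKM (WT) and from 7.02 to 49.5 FPKM (KO) and with IL-4 from 18.3 to 7.83 FPKM (WT) and from 20.9 to 9.67 FPKM (KO). Klhl6, a ubiquitin ligase adaptor, went from 5.37 to 42.6 FPKM (WT) and from 4.9 to 37.7 FPKM (KO) and with IL-4 from 11.8 to 4.87 FPKM (WT) and from 12.1 to 5.87 FPKM (KO). Slc25a37, the mitochondrial iron importer mitoferrin 1, went from 6.04 to 14.1 FPKM (WT) and from 5.95 to 14.7 FPKM (KO) and with IL-4 from 14.5 to 6.79 FPKM (WT) and from 16.1 to 6.91 FPKM (KO). In each of these 3 genes both genotypes moved the same way by similar amounts. Carmil1, a regulator of actin capping, went from 0.44 to 2.63 FPKM (WT) and from 0.74 to 2.86 FPKM (KO) and with IL-4 from 6.01 to 2.03 FPKM (WT) and from 6.04 to 2.2 FPKM (KO). Klhl6 and Slc25a37 lay just inside the limit with IL-4 (-1.02 and -1.06), and Ifit3 and Ifit3b just outside (-0.95 and -0.88).

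Genes down with IFN-gamma and up with IL-4 included 3 on the list of 24 IL-4 and STAT6 targets compared: Mrc1, Tfrc and Matk. Mrc1, the mannose receptor CD206 and a usual marker of alternative activation, went from 24.8 to 8.59 FPKM (WT) and from 33.2 to 11.5 FPKM (KO). IL-4 took it from 28.1 to 266 FPKM (WT) and from 22.2 to 215 FPKM (KO), the largest IL-4 response of the class (3.21). Tfrc, the transferrin receptor that takes up iron, went from 13.8 to 2.42 FPKM (WT) and from 12.7 to 2.71 FPKM (KO), and with IL-4 from 16.6 to 63.2 FPKM (WT) and from 10.2 to 41.1 FPKM (KO). Matk, a kinase that inhibits Src family kinases, went from 38.6 to 12.2 FPKM (WT) and from 34.3 to 7.68 FPKM (KO) and with IL-4 from 6.16 to 27.4 FPKM (WT) and from 5.92 to 21.8 FPKM (KO). Tfrc and Matk moved about as far with one cytokine as with the other, whereas Mrc1 moved further with IL-4. On the same target list 7 genes were up with both (Socs1, Cish, Pdcd1lg2, Flt1, Batf3, Ccl7 and Gatm), against 0.248% of all genes. With IL-4 19 of the 24 were at least 2-fold up, against 1.0% of all genes. The list names known targets, so these counts are a description.

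Hfe, the hemochromatosis gene, whose protein binds the transferrin receptor, went from 9.71 to 4.06 FPKM (WT) and from 7.74 to 2.92 FPKM (KO) and with IL-4 from 38.4 to 85.5 FPKM (WT) and from 37 to 86.4 FPKM (KO). Its level was far higher in bone marrow-derived than in peritoneal libraries at rest, while that of Tfrc was similar in both. The growth factor list gave 2 genes of this class. Igf1, insulin-like growth factor 1, went from 34.5 to 7.48 FPKM (WT) and from 22.8 to 2.59 FPKM (KO), and with IL-4 from 74.4 to 150.3 FPKM (WT) and from 76.3 to 159 FPKM (KO). Pdgfa, a platelet-derived growth factor chain, went from 50.3 to 17 FPKM (WT) and from 57.9 to 24.4 FPKM (KO) and with IL-4 from 24.9 to 57 FPKM (WT) and from 27 to 55.8 FPKM (KO). Igf1 lay close to the limit with IL-4 (1.03) but not with IFN-gamma (-2.40).

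Itgb3, the beta 3 integrin, went from 6.26 to 0.4 FPKM (WT) and from 8.51 to 0.44 FPKM (KO) and with IL-4 from 3.81 to 10.5 FPKM (WT) and from 2.71 to 8.08 FPKM (KO), opposite to Itga4. P2ry1, a receptor for ADP, went from 6.39 to 1.39 FPKM (WT) and from 6.02 to 0.97 FPKM (KO) and with IL-4 from 4.95 to 19.3 FPKM (WT) and from 5.56 to 21.7 FPKM (KO). Clec4a3, a lectin receptor gene 292.2 kb from Clec4d, went from 15.7 to 6.07 FPKM (WT) and from 13.2 to 2.15 FPKM (KO) and with IL-4 from 24.2 to 53.8 FPKM (WT) and from 20.9 to 44.8 FPKM (KO). Treated and untreated libraries of these 3 did not overlap in either cell type. The same held for every protein-coding member and for 39.5% of all genes compared. Flrt2, an adhesion protein gene, went from 23.5 to 9.28 FPKM (WT) and from 26.7 to 8.72 FPKM (KO) and with IL-4 from 6.11 to 12.9 FPKM (WT) and from 3.96 to 10.2 FPKM (KO). Tmem26, a membrane protein gene, was nearly lost with IFN-gamma, going from 1.81 to 0.14 FPKM (WT) and from 2.02 to 0.14 FPKM (KO) (8 counts in each treated library), and with IL-4 went from 1.1 to 7.48 FPKM (WT) and from 0.65 to 5.65 FPKM (KO).

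Abcd2, a peroxisomal transporter of fatty acids, went from 6.25 to 2.71 FPKM (WT) and from 5.9 to 1.33 FPKM (KO) and with IL-4 from 5.46 to 14.9 FPKM (WT) and from 5.71 to 17 FPKM (KO). Dhrs9, a retinol dehydrogenase, went from 30.4 to 16.7 FPKM (WT) and from 37 to 12.3 FPKM (KO) and with IL-4 from 15.5 to 39.7 FPKM (WT) and from 12.4 to 34.8 FPKM (KO). Lipn, a lipase family gene, went from 2.48 to 0.67 FPKM (WT) and from 2.09 to 0.49 FPKM (KO) and with IL-4 from 1.87 to 11.7 FPKM (WT) and from 2.09 to 11.7 FPKM (KO), on 8 to 40 counts in peritoneal libraries. The responses of Lipn to IL-4 were alike in both genotypes (2.14 and 2.04). Gask1b went from 24.2 to 3.51 FPKM (WT) and from 22.7 to 1.91 FPKM (KO) and with IL-4 from 5.5 to 14.4 FPKM (WT) and from 5.05 to 13.3 FPKM (KO). Sh2b2, an adaptor of receptor kinases, went from 18.9 to 4.65 FPKM (WT) and from 19.4 to 2.88 FPKM (KO) and with IL-4 from 11.2 to 23.3 FPKM (WT) and from 10.2 to 22 FPKM (KO). Sh2b2 and Igf1 were the 2 genes just inside the limit, and Dusp4 (-0.99 with IFN-gamma) and Atp6v0d2 (0.97 with IL-4) the 2 just outside.

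Of 14 genes of this class with a promoter in the RefSeq table, 5 held TGANTCA: Dhrs9, Gask1b, Hfe, Igf1 and Lipn. This AP-1-like motif reads the same on both strands and leaves the middle base open. That base was C or G in Dhrs9, Hfe and Lipn, and A or T in Gask1b and Igf1. The share was 5.9% of all 8148 genes, and 3 of 17 genes up with both held it (Cst7, H2-DMa and Tbxas1). This count was taken on promoters whose genes were chosen by their responses and is a description. TTCNNNNGAA was in 1 of 14, Tmem26, whose window (chr10:68723496-68723745, plus strand) has 2 matches, at -227 to -218 and -41 to -32. That window is shown as the one STAT6-like case of the class, followed by the AP-1-like matches with 10 bases on each side, matches in capitals. The sites are at chr2:69380434-69380460 (Dhrs9, plus strand), chr3:79885686-79885712 and chr3:79885943-79885969 (Gask1b, plus strand), chr13:23710905-23710931 (Hfe, minus strand), chr10:87861064-87861090 (Igf1, plus strand) and chr19:34067200-34067226 (Lipn, plus strand).
Tmem26: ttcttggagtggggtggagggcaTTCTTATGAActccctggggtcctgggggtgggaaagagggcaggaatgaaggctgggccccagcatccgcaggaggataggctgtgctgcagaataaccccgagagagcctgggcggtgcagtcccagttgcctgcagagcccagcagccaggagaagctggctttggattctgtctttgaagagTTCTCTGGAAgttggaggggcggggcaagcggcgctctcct
Dhrs9: gcaataggtgTGACTCActgagagaag
Gask1b, first: ttcttatttcTGAATCAcaaaaagggg
Gask1b, second: gttgagttagTGATTCAgtcaactctt
Hfe: acagcaatccTGACTCAgcagtggctc
Igf1: agctggaactTGAATCActattctgga
Lipn: caaacatcagTGAGTCAgccaaaatga

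The untreated level of a gene also differed between classes. All 6 genes up with IFN-gamma and down with IL-4 were higher in untreated bone marrow-derived than in untreated peritoneal macrophages, by 0.50 (Clec4e) to 2.37 (Tlr2) on the log2(FPKM + 1) scale with a median of 1.33, and 5 of them at least 2-fold (9.87% of all genes). The same direction held for 63.8% of all genes compared, with a median of 0.17. Of the 16 genes down with IFN-gamma and up with IL-4, 13 were lower in bone marrow-derived cells at rest, with a median of -0.43, against 36.2% of all genes; Hfe, Igf1 and Clec4a3 were the exceptions. Among the 13, 5 were at least 2-fold lower (3.96% of all genes). Of the genes up with both, 15 of 23 were higher in bone marrow-derived cells (median 0.64), and of those down with both 3 of 6 (median -0.05). The untreated libraries also enter the responses that chose the genes, so this is a description and has no test. Some of the 13 genes lower in bone marrow-derived cells differed little at rest, such as Tfrc (-0.02), Abcd2 (-0.10) and Lipn (-0.14).

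**Figure D4:**
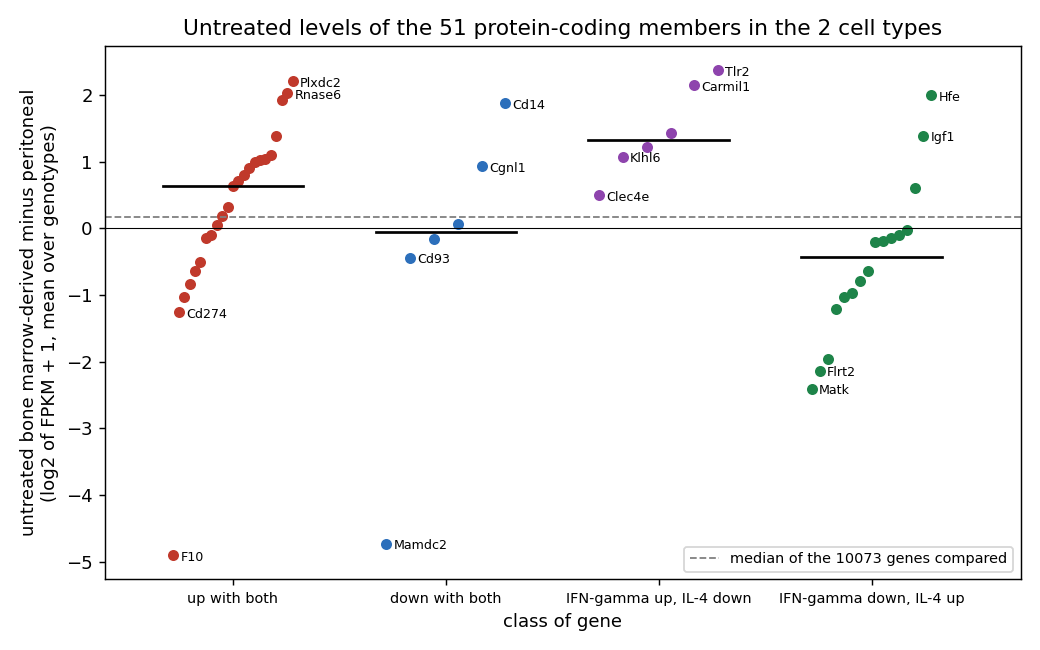
Difference in level between untreated bone marrow-derived and untreated peritoneal macrophages, as log2(FPKM + 1) averaged over both genotypes, for each protein-coding member by class. Bars are class medians (0.64, -0.05, 1.33 and -0.43) and the dashed line is the median of all genes compared, 0.17. All 6 genes up with IFN-gamma and down with IL-4 sit above 0.

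The genotype was not used to choose the genes, so differences between KO and WT could be tested in the additive fits. In peritoneal macrophages edgeR called 4 of 12052 genes (0.0332%) and 0 of the 51 members at an adjusted p under 0.05. Of the 51, 17 had an unadjusted p under 0.05, against 13.9% of all genes tested. DESeq2 called Igf1 and Tbxas1, or 2 of the 40 members to which it gave an adjusted p (0.49% of all such genes), and limma called 0 of 51 and 0 of 10670 genes (0.0%). Igf1 stood at 34.5 and 7.48 FPKM in WT and 22.8 and 2.59 FPKM in KO libraries (edgeR log2 change -1.03, adjusted p = 0.219; DESeq2 adjusted p = 0.0049). Tbxas1 had an edgeR log2 change of -0.87 (adjusted p = 0.12; DESeq2 adjusted p = 0.015). Both were lower in KO than in WT in the untreated and in the treated pair. These p-values may be too small where libraries of 1 genotype share an animal.

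In bone marrow-derived macrophages edgeR called 14 of the 51 members, or 3 of 23, 3 of 6, 2 of 6 and 6 of 16 in the order of the classes above, against 669 of 12879 genes (5.19%; 195 or 1.51% higher and 474 or 3.68% lower in KO). DESeq2 called 4 of the 47 members to which it gave an adjusted p (Tfrc, Mamdc2, Mrc1 and Flrt2), against 1.55% of all such genes, and limma 4 of 51 (Tfrc, Mamdc2, Mrc1 and Dok2), against 2.25%. Tfrc was lower in KO, at 16.6 and 63.2 FPKM in WT against 10.2 and 41.1 FPKM in KO libraries, an edgeR log2 change of -0.65 (SE 0.05, adjusted p = 8.36e-05). Mrc1 was lower in KO in both pairs, with a log2 change of -0.32 (SE 0.04, adjusted p = 0.00277). Mamdc2 was higher in KO, with a log2 change of 0.89 (SE 0.10, adjusted p = 0.00108). The others lower in KO were Tmem26 (-0.50), Flrt2 (-0.46), Itgb3 (-0.42), Plxdc2 (-0.35), Dok2 (-0.31), Dhrs9 (-0.25) and Clec4d (-0.22), and the others higher were Flt1 (0.32), Arhgap24 (0.32), Tlr2 (0.31) and Itga4 (0.25). All 6 called genes that went down with IFN-gamma and up with IL-4 (Tfrc, Tmem26, Flrt2, Itgb3, Mrc1 and Dhrs9) were lower in KO, and both called genes of the reverse class were higher. In peritoneal macrophages the genotype changes of the same 6 genes lay between -0.07 (Dhrs9) and 0.41 (Mrc1). Those of Tlr2 and Itga4 were 0.22 and 0.06 there. The summed fibroblast and mesothelial markers differed between the same libraries. Their sum was 387 and 362 FPKM in WT and 206 and 177 FPKM in KO. It was led by Col1a1 (209 and 199 against 110 and 93.7 FPKM) and Col1a2 (127 and 120 against 70.1 and 61.7 FPKM). Lum and Msln were below 0.5 FPKM throughout. The mesothelial markers Upk3b and Wt1 were at 0 in these libraries, and Krt19 and Gpm6a at most 0.1 and 0.13 FPKM. The part of the fibroblast and mesothelial markers in these genotype differences was not tested. As in peritoneal cells, the p-values may be too small where libraries of 1 genotype share an animal.

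The size of the IFN-gamma response differed between genotypes for some members, with no test because each pair is 1 library against 1. A difference of at least 2-fold between the KO and the WT response (1.91% of all genes) was seen in 4 of 23 genes up with both (Ccl2, Ccl7, Rnase6 and Tppp3), 1 of 6 down with both (Cd93), 1 of 6 of the IFN-gamma-up and IL-4-down class (Clec4e) and 0 of 16 of the reverse class. Ccl2 and Ccl7 responded more in KO, and Rnase6 (4.39 in WT, 3.11 in KO) and Tppp3 less. Untreated Rnase6 rested on 1 (WT) and 4 (KO) counts and untreated Tppp3 on 0 and 3, so the size of these differences is uncertain. Cd93 was reduced more in KO (-2.19) than in WT (-1.11). Among the 16 genes down with IFN-gamma and up with IL-4, 13 were reduced further in KO, with a median difference of -0.30. The KO response was also the lower for 60.8% of all genes, with a median of -0.06. For IL-4 no member's response differed 2-fold between genotypes (0.407% of all genes did), and the class medians of the difference lay between -0.09 and 0.08. After IFN-gamma, 9 of the 51 members stood at least 2-fold apart between KO and WT, against 1.98% of all genes. None did in the untreated peritoneal, untreated bone marrow-derived and IL-4 pairs, where 0.566%, 0.208% and 0.427% of all genes did.

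**Figure D5:**
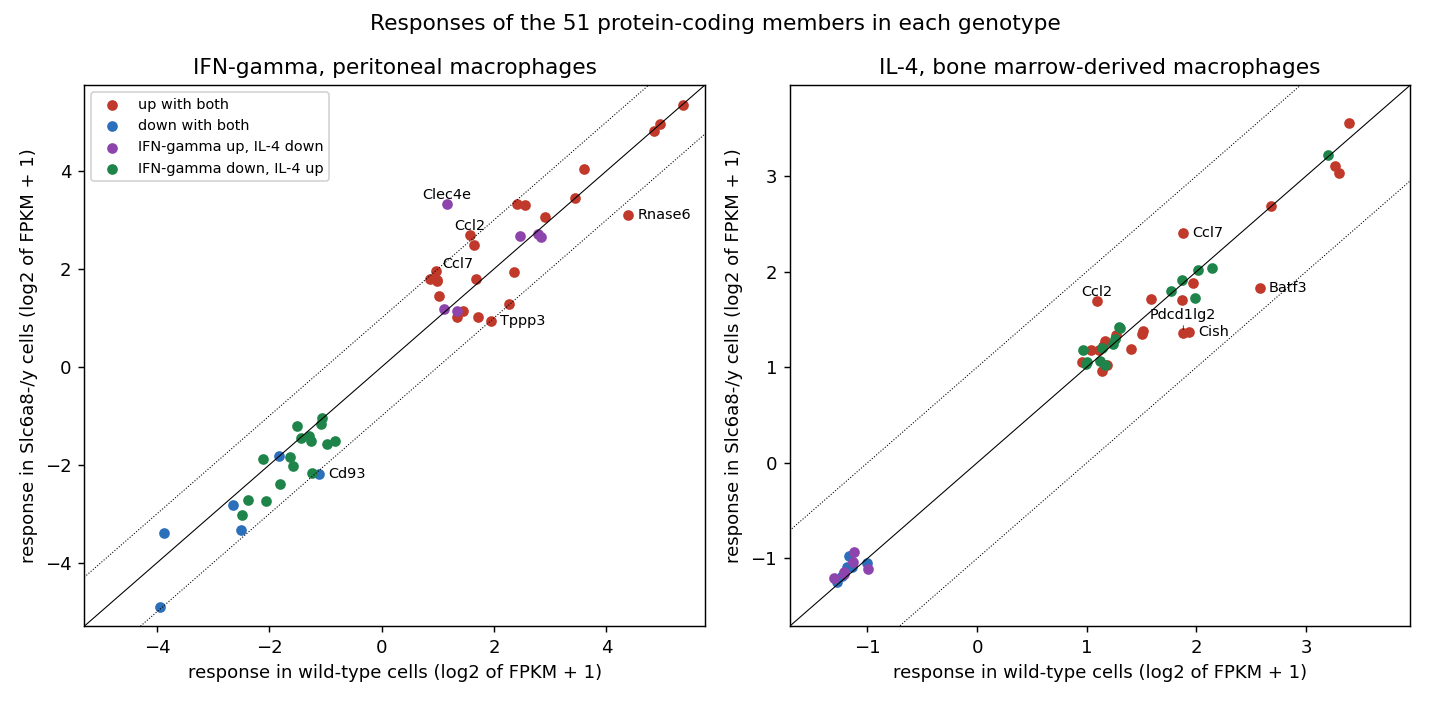
Response of each protein-coding member in WT (x axis) and KO (y axis) cells, to IFN-gamma in peritoneal macrophages on the left and to IL-4 in bone marrow-derived macrophages on the right, as difference in log2(FPKM + 1). The solid line marks equal responses and the dotted lines a 2-fold difference. Clec4e, Ccl2, Ccl7, Rnase6, Tppp3 and Cd93 lie past the dotted lines with IFN-gamma and no gene does with IL-4; labels on the right mark differences of at least 0.5.

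The number of genes on a list that were moved by both cytokines ran from 0 on 13 lists to 10 of 24 IL-4 and STAT6 targets. The share over all genes compared was 0.576%, so an empty list of 14 to 30 genes does not stand apart from all genes. Of all genes 5.78% were up and 5.12% down with IFN-gamma, and 1.0% were up and 0.208% down with IL-4. The IFN-gamma list and the IL-4 and STAT6 list name known targets, and lists were chosen with earlier results of these data known. A gene could also pass the FPKM filter through its treated libraries, so the counts on these and the other lists are a description. Of 21 IFN-gamma targets compared all 21 were at least 2-fold up with IFN-gamma and 1, Cd274, with IL-4 (medians 5.48 and 0.02). Among 29 type I interferon response genes these counts were 28 and 0, among 19 MHC class I and immunoproteasome genes 18 and 0, and among 11 MHC class II genes 9 and 1, H2-DMa. For IL-4 and STAT6 targets the medians were 0.42 and 2.06, and 10 of 24 were up and 4 down with IFN-gamma. Of 26 SOCS and feedback inhibitors, Socs1 and Cish were up with both, 9 were up and 2 down with IFN-gamma and 3 up with IL-4. Of 24 receptors, kinases and STATs of the JAK-STAT pathway 8 were up with IFN-gamma, and Jak2 alone was up with IL-4. Matrix and adhesion genes (30 compared) gave Itga4 and Itgb3 in opposite classes, growth factors (24) gave Flt1, Igf1 and Pdgfa, immediate early factors (18) gave Ier3, and IRF, BATF and macrophage factors (31) gave Batf3.

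A further 11 lists, as composed, held no member: chemoattractant and purinergic receptors, inflammatory and NF-kB targets, ATF4 and amino acid supply, fatty acid and lipid uptake, sterol and fatty acid synthesis, cholesterol efflux and LXR targets, glycolysis and HIF targets, MYC targets and ribosome biogenesis, NRF2 and oxidative stress, lysosome and phagocytosis, and cell cycle genes. P2ry1, a member, is a purinergic receptor that the first of these lists does not hold. The type I interferon and MHC class I lists held none either. Of these, inflammatory and NF-kB targets had the highest IFN-gamma count outside the interferon and MHC lists. It was 16 of 26 up (5.78% of all genes), with 0 up and 1 down with IL-4 (1.0% and 0.208% of all genes). MYC targets and ribosome biogenesis genes had medians of 0.12 and 0.31 with 0 of 30 moved 2-fold by IL-4. The IL-4 medians of the other lists here lay between -0.15 and 0.15, and all genes had -0.02.

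Without a limit on the size of the change, the stimulus tests of the edgeR fits gave a wider overlap. Of 11597 genes tested in both cell types 1376 (11.9%) were called for the stimulus in both, 900 in the same direction (442 up, 458 down) and 476 in opposite directions (212 up with IFN-gamma and down with IL-4, 264 the reverse). The background of genes that rose and fell was 17.2% and 14.9% of those tested with IFN-gamma and 12.0% and 9.23% with IL-4. MHC class II genes rose in 9 of 11 cases with IFN-gamma and in 9 of 12 with IL-4, with a median log2 change of 0.44 for IL-4, and 9 rose with both. MHC class I and immunoproteasome genes rose in 19 of 19 cases with IFN-gamma and 9 of 19 with IL-4. Of the IL-4 and STAT6 targets 11 rose with both and 6 fell with IFN-gamma and rose with IL-4. Of the inflammatory and NF-kB targets 6 rose with IFN-gamma and fell with IL-4, 4 rose with both and 1 fell with both. Toll-like and pattern receptors gave 4 that rose with IFN-gamma and fell with IL-4, 3 that fell with both, 2 that rose with both and 1 that did the reverse.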

How the data were processed

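RNA sequencing of 8 libraries was analysed, 1 for each group named in the labels. The authors' deposited tables give, per gene and library, an expected count (estimated, whole within 0.005 for 70.1% to 77.8% of genes) and an FPKM value, per the file headers. The submitters' processing notes name Bowtie2 2.2.5, RSEM (version not given in the sources used here) and the mm10 build. Deposited FPKM values carry no scaling between libraries. A gene that a table does not list was set to 0. Entrez identifiers were named from the GRCm38.p6 RefSeq table for 18076 of 18125 genes, 42 kept the deposited symbol and 7 have none.

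Responses are differences of log2(FPKM + 1) (pseudocount 1), averaged over genotypes, for genes averaging 1 FPKM or more in each cell type. The pseudocount understates changes of low genes. Genotype and stimulus were fitted as additive terms in each cell type, on rounded expected counts, with edgeR 4.0.16 (quasi-likelihood, TMM, filterByExpr) in R 4.3.3 and 1 residual degree of freedom. They rest on the spread between libraries of different groups, not between replicates. Benjamini-Hochberg adjusted p-values are over all genes tested, and SEs are the absolute log2 change over the square root of F. The fitted common biological coefficient of variation was 10.4% (peritoneal) and 4.6% (bone marrow-derived). The fits were tested on simulated data. DESeq2 1.42.0 and limma 3.58.1 served as alternatives, besides other pseudocounts, filters, fold limits and scalings. Other computing used Python 3.11.15, numpy 2.4.6, pandas 2.3.3, scipy 1.17.1 and matplotlib 3.10.9. Promoter windows came from RefSeq (GRCm38.p6).

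Named genes were the 10 protein-coding genes of each class with the largest lesser response (or all, where fewer), members on any of 26 functional lists, the 2 genes just inside and outside each limit, and members called for genotype. The classes' other protein-coding members were added for completeness. Members and lists were chosen with earlier results of these data known. Counting error is a lower limit of the real error, since PCR copies are not independent molecules.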

Additional observations from a re-analysis of the deposited data

How the results depend on the processing

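No paired analysis was possible because every group holds 1 replicate and the labels pair no libraries. The counts below follow the order up with both, down with both, up with IFN-gamma and down with IL-4, and the reverse, against 25, 6, 7 and 20 in the report. A pseudocount of 0.1 gave 41, 11 and 17 in the first 3 classes, and one of 5 gave 9, 2, 1 and 3. A mean of at least 5 FPKM gave 15 up with both and 12 in the fourth class. A 1.5-fold limit gave 86, 60, 42 and 72, and a 3-fold limit 6, 0, 0 and 3. Asking for 2-fold in each genotype separately gave 16 up with both, 4 in the third and 12 in the fourth class, and the edgeR log2 changes gave 42 up with both. Dropping the filter, using 1 genotype only, centring on the median, or keeping protein-coding genes moved no class by more than 1.5 times. The genes themselves changed more: the wild-type libraries alone kept 20, 6, 5 and 13 of the members, and the Slc6a8-/y libraries alone 21, 5, 5 and 19. Socs1, Gatm, Slc7a2, Rnf19b, Tfrc and Matk were kept under all 12 settings. For the genotype term, 4 peritoneal calls became 39 with DESeq2, 17 with RLE scaling, 52 with no filter and 0 with limma, and 669 bone marrow-derived calls became 155 with DESeq2, 1253 with no filter and 245 with limma. The fewer and the added genes follow from the limit, pseudocount or filter itself where that was changed; the cause of the differences between tools was not tested. With 1 library per group, leaving out a replicate was not possible. Depth limits genes under about 1 FPKM, such as untreated Cish, Pdcd1lg2, Rnase6, Tppp3 and Cst7.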

Other observations

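Some genes met the 2-fold limits in 1 genotype only; they were picked after their values were seen and were not tested. Ifit1, Ifit2 and Ifit3, antiviral genes of the type I interferon response, were up with IFN-gamma in both genotypes but lower with IL-4 in WT cells alone. In bone marrow-derived macrophages Ifit3 stood at 22.4 FPKM untreated and 5.79 FPKM after IL-4 in WT, and at 20.2 and 18.7 FPKM in KO. Ifit2 stood at 12.0 and 4.11 FPKM in WT and at 11.4 and 14.7 FPKM in KO, and Ifit1 at 9.69 and 4.31 FPKM in WT and at 9.87 and 11.47 FPKM in KO. The untreated levels of these 3 genes were close in both genotypes, so the gap lay in the IL-4 libraries.

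Zbp1, a sensor of Z-form nucleic acids that interferon induces, met the limits for genes up with both in KO cells alone. IFN-gamma took it from 2.92 to 245 FPKM (WT) and from 4.40 to 356 FPKM (KO), while with IL-4 it went from 15.2 to 18.0 FPKM (WT) and from 14.5 to 33.2 FPKM (KO). H2-Q6, a nonclassical MHC class I gene with near-identical relatives between which reads may be split, went from 3.52 to 5.01 FPKM (WT) and from 2.07 to 7.77 FPKM (KO) with IL-4. Dhrs3, a retinal reductase, was an abundant gene that met the limits for down with IFN-gamma and up with IL-4 in WT cells alone. It went from 334 to 71.8 FPKM (WT) and from 341 to 30.7 FPKM (KO) with IFN-gamma, and from 278 to 599 FPKM (WT) and from 330.4 to 590 FPKM (KO) with IL-4.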
